A study of Penicillium citrinum with 6 samples.

Results

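The 5 genes described here are the nitrate and nitrite genes of *Penicillium citrinum* at 2 places in its gene numbering, chosen by their listed gene numbers out of 9385 genes in the tables. PCI_3791 (nitrate transporter), PCI_3792 (nitrite reductase) and PCI_3793 (nitrate reductase) carry consecutive numbers and are called the trio below. PCI_1262 (a further nitrate reductase) and PCI_1263 (copper-containing nitrite reductase) are called the pair. Product names are those of the tables. None of the gene numbers (0 of 9385) matched the 11657 genes of the RefSeq table used here, so no genome positions or sequences are given, and neighbouring numbers are taken only as numbers.

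Total RNA of wild-type mycelium was measured by RNA sequencing in 6 libraries, 2 for each of 3 groups. CK2D was taken to be 2-day mycelium on Czapek-Dox plates, whose defined medium offers sucrose as carbon source and nitrate as nitrogen source. TL2D and TL3D were taken to be mycelium on tobacco leaves inoculated with conidia, after 2 and 3 days, and all cultures were kept at 25 °C. This reading of the codes, which the labels leave unexplained, comes from the culture protocol and the days. The labels give wild type as the genotype and leave out whether the replicates grew in separate cultures and whether leaf material was removed. The p-values therefore cover library-to-library spread, which may be technical.

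In fungi, nitrate is taken up by a transporter, reduced to nitrite by a nitrate reductase with a molybdenum cofactor, and reduced on to ammonium by an assimilatory nitrite reductase with a sirohaem group. In *Aspergillus nidulans* these 3 genes lie side by side, are induced by nitrate through the activator NirA and the GATA factor AreA, and are repressed when ammonium or glutamine is plentiful. Copper-containing nitrite reductase makes nitric oxide from nitrite and is known from fungal denitrification, in which nitrate or nitrite replaces oxygen as electron acceptor. Nitric oxide is removed by flavohaemoproteins.

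Levels are FPKM (fragments counted per length of gene and per total of mapped fragments), so levels of different genes can be compared. FPKM summed to between 582600 and 614206 per library, and 7906 to 8217 genes reached 1 FPKM. Read totals are unknown, so no counting interval is given. The TL2D replicates stood further apart than the others. Of 8129 genes with at least 1 FPKM in a TL2D replicate, 551 (6.78%) differed at least 2-fold between the replicates, and 418 of these were higher in replicate 1. The same share was 0.972% in CK2D and 0.449% in TL3D. All 5 nitrate and nitrite genes were higher in TL2D replicate 1 than in replicate 2, and 3 of them (PCI_3791, PCI_1262 and PCI_1263) by more than 2-fold. Changes below are log2 changes of (FPKM + 1) ± SE from limma, p-values carry Benjamini-Hochberg adjustment over every gene tested, and a gene rose or fell where the adjusted p was under 0.05. Folds are ratios of mean FPKM.

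The trio and the pair went opposite ways from plates to day 2 leaves. The trio was lowest on plates, highest on day 2 leaves and in between on day 3 leaves, while the pair was lowest on day 2 leaves. The nitrate transporter gene PCI_3791, whose product brings nitrate into the cell, stood at 14.8 and 14.2 FPKM in CK2D, at 74.1 and 30.3 in TL2D, and at 32.4 and 34.96 in TL3D. Both leaf groups lay above the plates, and the TL3D values fell inside the range of the TL2D replicates. The nitrite reductase gene PCI_3792, for the step from nitrite to ammonium, stood at 37.0 and 38.0 FPKM in CK2D, 150 and 129 in TL2D, and 84.8 and 84.8 in TL3D. The nitrate reductase gene PCI_3793 stood at 20.9 and 21.7 FPKM in CK2D, 73.6 and 61.6 in TL2D, and 42.9 and 43.9 in TL3D. For these reductase genes the 3 groups did not overlap. The share of all genes with such separation was not counted, here or for PCI_1263 below.

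The nitrate reductase gene of the pair, PCI_1262, stood at 18.8 and 19.6 FPKM in CK2D, 5.81 and 2.27 in TL2D, and 22.6 and 18.4 in TL3D. Day 2 leaves were below both other groups, and CK2D and TL3D overlapped. The copper-containing nitrite reductase gene PCI_1263 stood at 3.85 and 3.999 FPKM in CK2D, 1.13 and 0.0359 in TL2D, and 12.04 and 8.83 in TL3D. Its groups did not overlap, and day 3 leaves were highest. In bulk samples such as these, fewer cells that express a gene and less RNA per cell cannot be told apart.

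**Figure D1:**
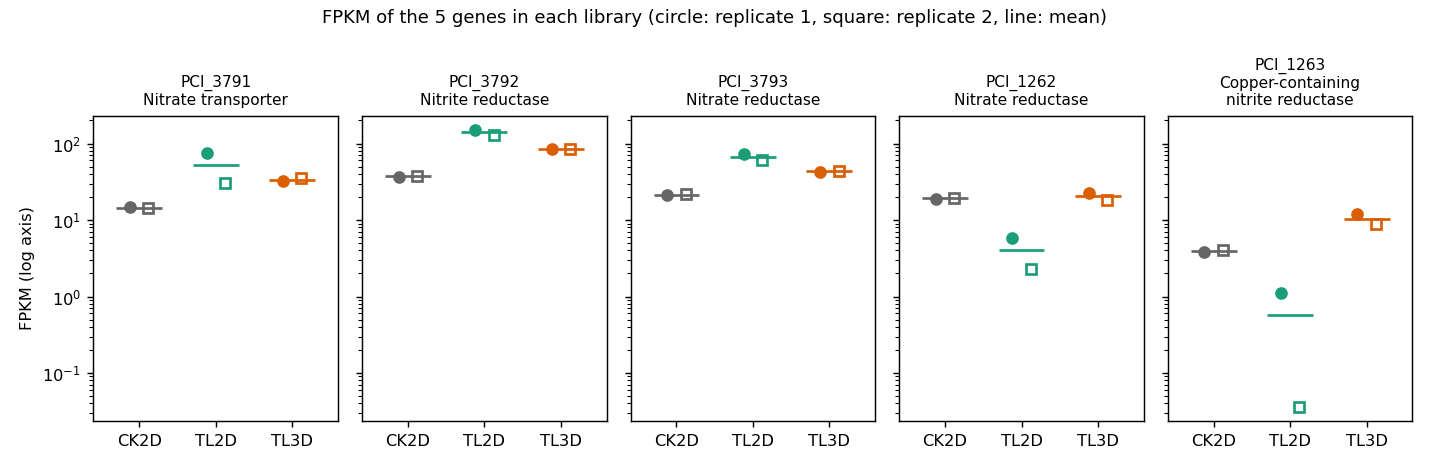
FPKM on a log axis of the 5 genes in each library, by group (CK2D plates at day 2, TL2D and TL3D leaves at days 2 and 3). Circles are replicate 1, squares replicate 2 and lines the mean of the 2; PCI_3792 goes from 37.0 and 38.0 on plates to 150 and 129 on day 2 leaves, whereas PCI_1263 goes from 3.85 and 3.999 to 1.13 and 0.0359.

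Within the ranking of all 9385 genes, the trio moved toward the top and the pair toward the bottom from plates to day 2 leaves. PCI_3792 was above 69.9% and 70.3% of genes in the CK2D libraries and above 92.7% and 91.6% in TL2D. PCI_3793 was above 52.8% and 53.4% of genes in CK2D and above 84.3% and 81.4% in TL2D. PCI_1262 was close to the median in CK2D (49.7% and 50.03% of genes below it) and had 27.9% and 21.4% below it in TL2D. PCI_1263 had 23.5% and 22.9% of genes below it in CK2D, 14.6% and 2.99% in TL2D, and 38.2% and 32.5% in TL3D.

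The order of levels also differed between groups. On plates it ran, from high to low, PCI_3792, PCI_3793, PCI_1262, PCI_3791 and PCI_1263, and no neighbours in that order overlapped between libraries. On day 2 leaves PCI_3792 was highest, PCI_3793 and PCI_3791 overlapped, and PCI_1262 and PCI_1263 came last. On day 3 leaves the order was PCI_3792, PCI_3793, PCI_3791, PCI_1262 and PCI_1263, again without overlap. The summed level of the trio was 3.22 and 3.13 times that of the pair in CK2D, 43.0 and 95.8 times in TL2D, and 4.61 and 6.01 times in TL3D.

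The comparison of TL2D with CK2D asks how leaf and plate mycelium differ at the same age. All 5 genes were tested and passed, 3 higher and 2 lower on leaves, where 54.2% of all tested genes passed, 24.8% higher and 29.4% lower, and the median change of all tested genes was −0.10. PCI_3792 rose by 1.86 ± 0.11 (3.72-fold, limma adjusted p = 0.00108), and PCI_3793 by 1.61 ± 0.12 (3.17-fold, adjusted p = 0.00166). PCI_3791 rose by 1.64 ± 0.43 (3.59-fold, and 2.09-fold without TL2D replicate 1; adjusted p = 0.0318). PCI_1262 had a change of −2.10 ± 0.37 (4.75-fold lower on leaves, and 8.45-fold without TL2D replicate 1; adjusted p = 0.0114). PCI_1263 had a change of −1.73 ± 0.38 (6.75-fold lower, 109-fold without TL2D replicate 1 and 3.48-fold without TL2D replicate 2; adjusted p = 0.0194). Its level in TL2D replicate 2 is close to 0, so folds against that library are very uncertain. Changes of 95.1% to 96.4% of tested genes lay below those of the trio, and 4.28% and 5.80% lay below those of PCI_1262 and PCI_1263.

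The calls of PCI_3792 and PCI_3793 held whichever library was left out, but those of the other 3 genes did not. Over all tested genes, too, most calls of this comparison were lost without CK2D replicate 1 or 2, which leaves 1 library in that group. Losses given below for these fits are therefore not particular to the genes named. Without CK2D replicate 1 or 2, the adjusted p was 0.138 and 0.147 for PCI_3791, 0.0808 and 0.0845 for PCI_1262, and 0.106 and 0.109 for PCI_1263 in limma. PCI_1263 also had no call with a pseudocount of 0.1 (adjusted p = 0.0605), and its FDR in the authors' deposited table was 0.172.

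The comparison of TL3D with TL2D asks what changed on leaves from day 2 to day 3. Here 10.1% of tested genes passed, 6.77% higher and 3.3% lower at day 3, and 4 of the 5 nitrate and nitrite genes were among them. The trio's reductases fell, PCI_3792 by 0.71 ± 0.11 on the log2 scale (1.65-fold, adjusted p = 0.0314 in limma) and PCI_3793 by 0.62 ± 0.12 (1.56-fold, adjusted p = 0.0460). The pair rose, PCI_1262 by 2.18 ± 0.37 (5.08-fold, and 9.04-fold without TL2D replicate 1; adjusted p = 0.0350) and PCI_1263 by 2.93 ± 0.38 (18.0-fold, 291-fold without TL2D replicate 1 and 9.27-fold without TL2D replicate 2; adjusted p = 0.0232). The rise of PCI_1263 lay above the changes of 98.8% of tested genes. The transporter gene PCI_3791 had no call, with a change of −0.49 (95% interval −1.57 to 0.59; adjusted p = 0.479). Its change was 0.14 (adjusted p = 0.442) without TL2D replicate 1 and −1.12 (adjusted p = 1.93e-06) without TL2D replicate 2.

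These calls rest on both TL3D libraries. With replicate 1 or 2 left out, limma called 0 of 8222 genes (1074 and 1198 at an unadjusted p under 0.05), against 828 with all 4 libraries; the authors' deposited table had 1908 of 9385 genes at an FDR under 0.05. The members that had passed then had adjusted p from 0.234 to 0.358, with changes of the same sign. PCI_3793 had no call with no filter on low values and with a pseudocount of 0.1 (adjusted p = 0.0583 and 0.0526), nor had PCI_1262 with no filter (adjusted p = 0.0536) or PCI_1263 with a pseudocount of 0.1 (adjusted p = 0.0680). In the authors' deposited table the FDR was 7.59e-08 for PCI_1262, 1.41e-06 for PCI_3792, 0.000116 for PCI_3793, 0.0647 for PCI_1263 and 0.249 for PCI_3791.

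Day 3 leaves against day 2 plates differ in substrate and age together, and the 2 groups come from separate tables that hold identical TL2D columns. All 3 trio genes were higher on day 3 leaves, in a comparison where 58.3% of tested genes passed, 28.1% higher and 30.2% lower. PCI_3791 was 2.32-fold higher (1.16 ± 0.10, adjusted p = 6.66e-05 in limma), PCI_3792 was 2.26-fold higher (1.15 ± 0.08, adjusted p = 2.96e-05) and PCI_3793 was 2.04-fold higher (0.99 ± 0.09, adjusted p = 9.61e-05). The members of the pair differed from each other here. PCI_1263 was 2.66-fold higher on day 3 leaves than on plates (1.20 ± 0.16, adjusted p = 0.000570), while PCI_1262 had no call, with a change of 0.08 (95% interval −0.20 to 0.37; adjusted p = 0.574) that was −0.058 without TL3D replicate 1. All 4 calls held whichever library was left out. The comparisons share libraries, so they are not independent of each other.

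FPKM ratios of 2 genes inside 1 library do not depend on how that library was scaled. Ratios of (FPKM + 1), used below on the log2 scale, do depend on it, most at low levels. The nitrate reductase gene of the trio, PCI_3793, stood at 1.12 and 1.11 times the FPKM of the other nitrate reductase gene, PCI_1262, in CK2D. It stood at 12.7 and 27.1 times in TL2D, and at 1.89 and 2.39 times in TL3D. The 2 nitrate reductase genes were thus close to equal on plates and far apart on day 2 leaves. The nitrite reductase gene PCI_3792 stood at 9.62 and 9.51 times the copper-containing one, PCI_1263, in CK2D, at 133 and 3597 times in TL2D, and at 7.04 and 9.60 times in TL3D.

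On log2 of (FPKM + 1), the ratio of PCI_3793 to PCI_1262 was 0.14 ± 0.01 in CK2D, 3.86 ± 0.57 in TL2D and 1.05 ± 0.23 in TL3D (SD, n = 2). The differences between groups were 3.71, −2.80 and 0.91 for TL2D against CK2D, TL3D against TL2D and TL3D against CK2D. A two-sided exact permutation test of 2 libraries against 2 cannot go below p = 0.333, and gave that value for each of these differences (0.417 adjusted over the 15 ratio tests). Inside the trio, PCI_3792 stayed between 1.75 and 2.09 times PCI_3793 in all 6 libraries. PCI_3791 stood at 0.708 and 0.656 times PCI_3793 in CK2D, 1.01 and 0.492 times in TL2D, and 0.755 and 0.796 times in TL3D, so its TL2D replicates lay on either side of the other libraries. Inside the pair, PCI_1263 stood at 0.205 and 0.204 times PCI_1262 in CK2D and at 0.532 and 0.480 times in TL3D. In TL2D it stood at 0.194 and 0.0158 times, and there the direction against CK2D depended on the pseudocount (0.37 with 1 and −0.94 with 0.1 on the log2 scale).

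**Figure D2:**
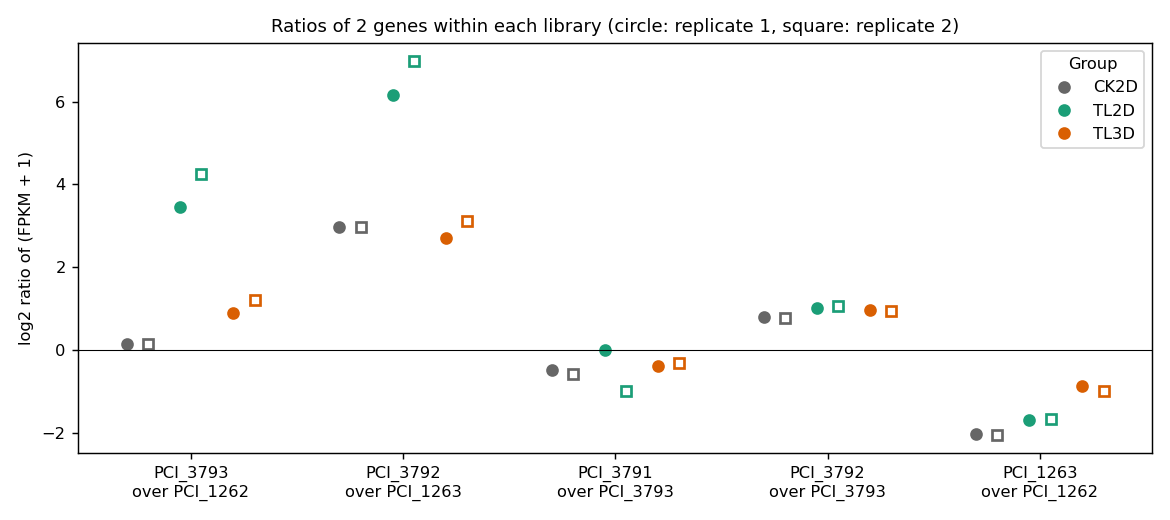
Log2 ratio of (FPKM + 1) of 2 genes within each library, with circles for replicate 1, squares for replicate 2 and colours for the group. The ratio of PCI_3793 to PCI_1262 averages 0.14 on plates (CK2D), 3.86 on day 2 leaves (TL2D) and 1.05 on day 3 leaves (TL3D), while the ratio of PCI_3792 to PCI_3793 stays close to 1 on this scale.

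Genes numbered up to 5 places away from each set were then described. Beside the trio stood genes of other functions, such as PCI_3790 for the ribosomal protein L5 and PCI_3794 for a gamma-tubulin complex component. Of 10 such genes 9 were tested, 3 rose and 2 fell in TL2D against CK2D (55.6%, against 54.2% of all tested genes; 1 and 0 of these 5 calls remained without CK2D replicate 1 and 2), and 0 of 9 passed in TL3D against TL2D (limma; 3 at an unadjusted p under 0.05 and 1 at an FDR under 0.05 in the authors' deposited table). PCI_3790 rose by 0.85 ± 0.11 (adjusted p = 0.00565, but 0.0585 and 0.0714 without CK2D replicate 1 and 2). PCI_3794 went from 6.92 ± 1.10 to 4.81 ± 0.55 FPKM (SD, n = 2; adjusted p = 0.0833). The only called one past 2-fold was the hypothetical protein gene PCI_3797 (2.26-fold, adjusted p = 0.00343, but 0.0516 without CK2D replicate 2).

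Of 10 genes numbered up to 5 places from the pair 6 were tested. In TL2D against CK2D 1 rose and 4 fell (83.3%, against 54.2% of all tested genes). In TL3D against TL2D 3 rose and 0 fell (50%, against 10.1%). Beside the pair, 3 consecutive genes moved in the same directions as PCI_1262 and PCI_1263. PCI_1264, annotated catechol O-methyltransferase 2, stood at 211 and 202 FPKM in CK2D, 29.2 and 6.85 in TL2D, and 159 and 135 in TL3D. It was 11.4-fold lower in TL2D than in CK2D (30.1-fold without TL2D replicate 1 and 7.07-fold without TL2D replicate 2; adjusted p = 0.0109) and 8.16-fold higher in TL3D than in TL2D (21.5-fold and 5.03-fold without those libraries; adjusted p = 0.0442). PCI_1265, annotated phenol hydroxylase, stood at 79.0 and 77.8 FPKM in CK2D, 9.52 and 1.87 in TL2D, and 43.1 and 40.7 in TL3D. It was 13.8-fold lower (41.8-fold and 8.23-fold without TL2D replicate 1 and 2; adjusted p = 0.00939) and then 7.35-fold higher (22.4-fold and 4.40-fold; adjusted p = 0.0498). PCI_1266, annotated as a solid-state culture specific ATP-grasp domain protein, stood at 37.8 and 36.1 FPKM in CK2D, 12.6 and 9.06 in TL2D, and 27.7 and 25.0 in TL3D (adjusted p = 0.00327 and 0.0287).

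These 3 genes differed from PCI_1263 in TL3D against CK2D, where they were called lower on day 3 leaves and PCI_1263 was higher. Their changes were −0.49, −0.89 and −0.47. These calls were lost when all 6 libraries shared 1 fit (adjusted p = 0.512, 0.226 and 0.0526 in limma). The next numbers, PCI_1267 and PCI_1268, did not share the pattern, with changes of 0.29 (no call) and 0.88 ± 0.14 in TL2D against CK2D. On the other side PCI_1259, a Zn(II)2Cys6 transcription factor gene, was 2.49-fold lower in TL2D than in CK2D (adjusted p = 0.0107). PCI_1260, annotated molybdopterin molybdenumtransferase 2, a name from the synthesis of the cofactor that nitrate reductase needs, reached at most 0.266 FPKM and was not tested, as were PCI_1257, PCI_1258 and PCI_1261. Without CK2D replicate 1 or 2, PCI_1264, PCI_1265, PCI_1259 and PCI_1268 lost their calls in TL2D against CK2D (adjusted p from 0.0736 to 0.0901), so that 1 of the 5 called neighbours of the pair, PCI_1266, remained. In TL3D against TL2D PCI_1264 and PCI_1265 had no call with a pseudocount of 0.1 (adjusted p = 0.0550 and 0.0691) or with no filter (adjusted p = 0.0644 and 0.0718), and no call among the neighbours of the pair held in TL3D against TL2D without either TL3D library.

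**Figure D3:**
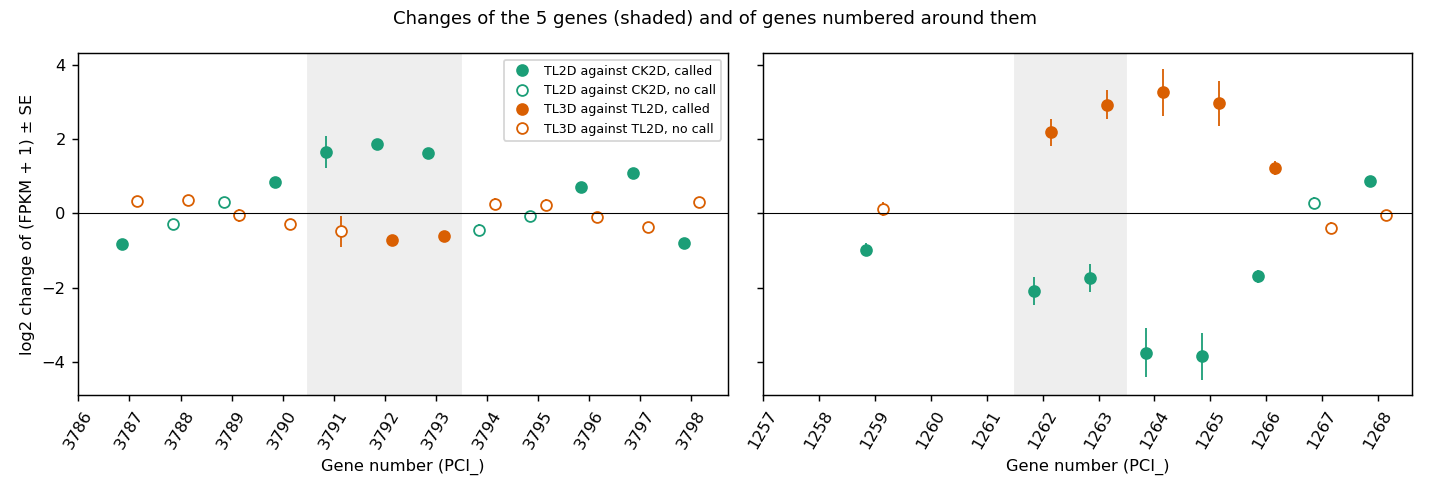
Log2 change of (FPKM + 1) ± SE by gene number around the trio (left) and the pair (right), which are shaded; filled points passed at an adjusted p under 0.05 and numbers with no point were not tested. Changes of PCI_1264 and PCI_1265 are −3.75 and −3.85 in TL2D against CK2D and 3.26 and 2.96 in TL3D against TL2D, while the genes at either end of the trio change less than the trio.

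Other genes of nitrogen use were taken from 7 lists of product names. Their counts stand beside the shares of all tested genes that passed, 54.2% in TL2D against CK2D and 10.1% in TL3D against TL2D. Of 7 genes for assimilating ammonium, the product of nitrite reduction, 4 rose and 1 fell in TL2D against CK2D, with a median change of 0.59 against −0.10 over all tested genes. Of these 5 calls 2 remained without either CK2D library. None passed in TL3D against TL2D, 0 of 7 (limma; 2 at an unadjusted p under 0.05 and 2 at an FDR under 0.05 in the authors' deposited table). The gene that fell, folylpolyglutamate synthase PCI_1423, was matched by name alone and makes folate derivatives. Glutamine synthetase PCI_1696, which binds ammonium into glutamine, stood at 551 and 607 FPKM in CK2D, 1608 and 1456 in TL2D, and 1238 and 1193 in TL3D (2.65-fold, adjusted p = 0.00203 for TL2D against CK2D). A glutamine synthetase catalytic region gene, PCI_1156, rose 9.84-fold from 0.738 ± 0.245 to 7.27 ± 0.74 FPKM (SD, n = 2). NADP-specific glutamate dehydrogenase PCI_0637 rose 1.60-fold (adjusted p = 0.0139, but 0.0807 and 0.117 without CK2D replicate 1 and 2). NAD-specific glutamate dehydrogenase PCI_8482, of glutamate breakdown, rose by 0.59 ± 0.13 (adjusted p = 0.0196, but 0.116 and 0.120 without those libraries).

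Of 11 ammonium and urea transport genes 8 were tested, and 4 rose and 1 fell in TL2D against CK2D (62.5%, against 54.2% of all tested genes). None of these 5 calls remained in limma without either CK2D library. The ammonium transporter PCI_6654 stood at 3.39 and 3.55 FPKM in CK2D, 51.5 and 18.0 in TL2D, and 28.7 and 31.8 in TL3D. It was 10.01-fold higher in TL2D than in CK2D (5.18-fold without TL2D replicate 1; adjusted p = 0.0115, but 0.0822 and 0.0807 without CK2D replicate 1 and 2) and 8.72-fold higher in TL3D than in CK2D (adjusted p = 1.51e-06). The low affinity ammonium transporter PCI_1728 moved the other way, from 3.52 ± 0.22 to 1.32 ± 0.09 FPKM (SD, n = 2; adjusted p = 0.00841, but 0.0678 and 0.0772 without CK2D replicate 1 and 2). In TL3D against CK2D 7 of 9 tested genes of this list were higher and 1 was lower (88.9%). Of all tested genes 58.3% passed there, 28.1% higher and 30.2% lower. The call of PCI_5092, with a change of 0.44, was lost when all 6 libraries shared 1 fit (adjusted p = 0.232 in limma).

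Of 48 genes for the breakdown or uptake of other nitrogen sources 43 were tested, and 9 rose and 9 fell in TL2D against CK2D (41.9%, below the 54.2% of all tested genes), with a median of 0.02. The uricase gene PCI_6737, for purine breakdown, rose 2.08-fold (adjusted p = 0.00801, but 0.0605 without CK2D replicate 1), and the acetamidase PCI_7428 rose 4.06-fold (adjusted p = 0.00241). Another acetamidase, PCI_9126, was 3.06-fold lower (adjusted p = 0.00181), and the nitrilase PCI_0360 was 4.17-fold lower (adjusted p = 0.00405) and then 6.67-fold higher from day 2 to day 3 (adjusted p = 0.0126).

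In the list of nitrogen regulators 2 of 24 tested genes rose and 11 fell in TL2D against CK2D, a called share of 54.2%, the same as over all tested genes. In this comparison the genes annotated nirA and nit-4 were lower while the trio was higher, and areA had no call. The gene annotated nirA, PCI_3275, stood at 14.4 and 17.5 FPKM in CK2D, 7.34 and 6.78 in TL2D, and 10.1 and 10.05 in TL3D. Its change in TL2D against CK2D was −1.07 ± 0.14 (adjusted p = 0.00601, but 0.0664 without CK2D replicate 2). The gene annotated nit-4, the *Neurospora* name for the same activator, PCI_0092, was 1.77-fold lower in TL2D (adjusted p = 0.0113, but 0.0711 and 0.0938 without CK2D replicate 1 and 2). The areA gene PCI_6302 had no call (43.3 ± 2.0 and 62.9 ± 27.1 FPKM, SD, n = 2; adjusted p = 0.260). In TL3D against CK2D areA was called higher, with a change of 0.53. This call was lost when all 6 libraries shared 1 fit (adjusted p = 0.154 in limma). The repressor gene nmrA, PCI_7962, was 1.32-fold lower (adjusted p = 0.0243, but 0.0509 after median log ratio scaling and 0.167 and 0.150 without CK2D replicate 1 and 2).

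Most other genes in that list are NmrA-like family proteins, a wide family of dehydrogenase-like proteins. One of them, PCI_2455, stood at 22.3 and 21.9 FPKM in CK2D, 6.23 and 2.49 in TL2D, and 24.5 and 18.9 in TL3D. A further 2 genes, PCI_2663 and PCI_5383, were matched through letters inside the words permeability and permeable.

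Of 12 tested genes matched by names of the cofactors of these reductases, 3 rose and 1 fell in TL2D against CK2D (33.3%, below the 54.2% of all tested genes). Of the rises, PCI_4004 is named a molybdopterin binding oxidoreductase and PCI_4337 a molybdenum cofactor sulfurase, and both were matched by product name alone. Both lost their calls without CK2D replicate 1 or 2, where the change was 0.90 and 1.04 for PCI_4004, and 0.69 and 0.67 for PCI_4337. Uroporphyrinogen-III C-methyltransferase PCI_0770, which starts sirohaem synthesis, stood at 22.0 and 19.7 FPKM in CK2D, 58.4 and 48.6 in TL2D, and 43.5 and 41.1 in TL3D (2.57-fold, adjusted p = 0.00319 for TL2D against CK2D). The later sirohaem gene met8, PCI_4283, stood at 83.7 ± 1.1 and 85.6 ± 1.1 FPKM (SD, n = 2). The gene annotated gephyrin, PCI_6597, the animal name for the protein that inserts molybdenum into its cofactor, went from 61.5 ± 2.7 to 13.4 ± 2.4 FPKM (4.60-fold lower, adjusted p = 0.00144). Among other enzymes with these cofactors, the sulfite reductases PCI_6588 and PCI_9014 rose 2.23-fold and 1.61-fold (adjusted p = 0.00281 and 0.00845; the latter 0.0723 and 0.0502 without CK2D replicate 1 and 2). Both then fell in TL3D against TL2D (adjusted p = 0.0344 and 0.0296), as PCI_3792 and PCI_3793 did.

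Of 5 denitrification and nitric oxide genes 2 rose and 1 fell in TL2D against CK2D (54.2% of all tested genes passed), and its 2 flavohemoprotein genes, for nitric oxide removal, went opposite ways. PCI_7481 stood at 45.7 and 47.0 FPKM in CK2D, 281 and 372 in TL2D, and 214 and 217 in TL3D. Its change in TL2D against CK2D was 2.78 ± 0.16 (7.04-fold, adjusted p = 0.00101), and it was above the plates in both leaf groups, as the trio was. PCI_5153 stood at 40.0 and 37.1 FPKM in CK2D, 14.1 and 8.62 in TL2D, and 58.1 and 46.3 in TL3D. It was 3.39-fold lower in TL2D than in CK2D (adjusted p = 0.00649, but 0.0649 and 0.0605 without CK2D replicate 1 and 2) and 4.60-fold higher in TL3D than in TL2D (adjusted p = 0.0206). Like the pair, it was lowest on day 2 leaves.

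Over the 7 lists together, 50 of 102 tested genes passed in TL2D against CK2D, 49.0% against 54.2% of all tested genes. Most of these calls were lost without CK2D replicate 1 or 2, as were most calls over all tested genes. Nearly all held without TL2D replicate 1 or 2. In TL3D against TL2D 16 of 103 passed, 15.5% against 10.1%, of which 0 still passed without either TL3D library. None of the called genes changed sign in those fits or after either scaling.

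**Figure D4:**
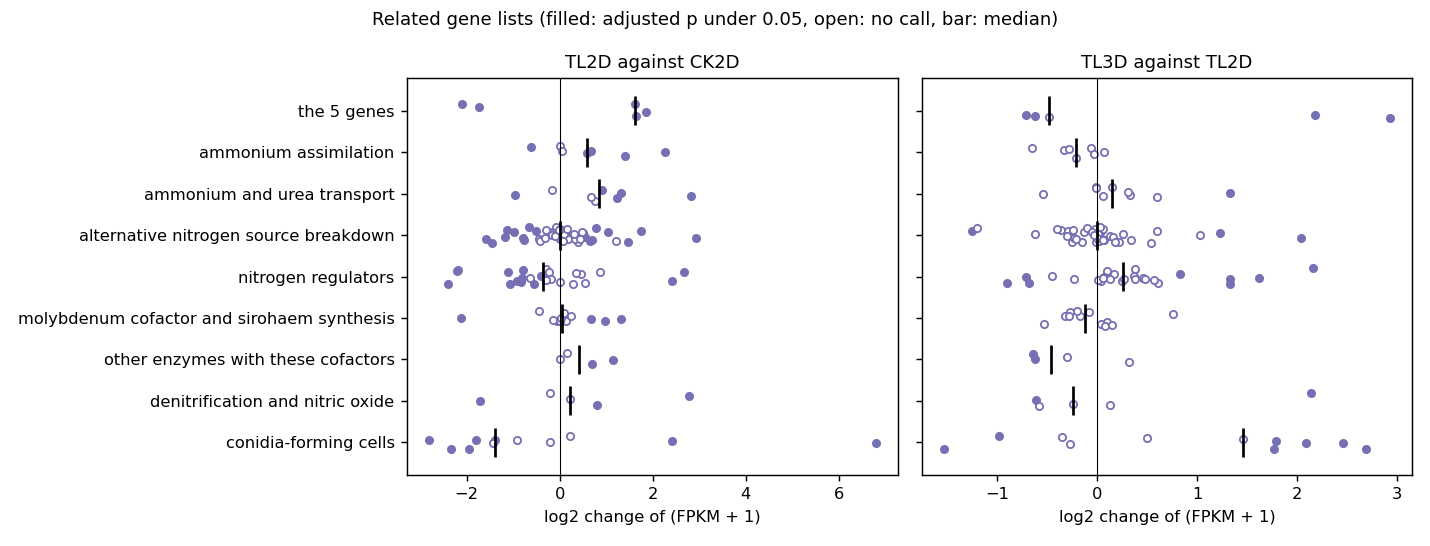
Log2 change of (FPKM + 1) of the 5 genes and of each related list in TL2D against CK2D (left) and TL3D against TL2D (right). Each point is a tested gene (filled where the adjusted p was under 0.05) and bars are medians, 0.59 for ammonium assimilation and −0.35 for nitrogen regulators on the left.

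The samples are labelled mycelia, and genes of conidia-forming cells were present in every library (0 of 11 markers at 0). Their summed level was lowest in TL2D, as that of the pair was, but single markers did not all follow the sum. The summed FPKM of the 11 markers was 20855 and 19601 in CK2D, 10320 and 7359 in TL2D, and 21508 and 24815 in TL3D. Most of this came from 5 hydrophobin genes, and the 6 regulators alone summed to 1005 and 907, 489 and 327, and 561 and 681. In TL2D against CK2D 2 of 11 markers rose and 5 fell, and in TL3D against TL2D 5 rose and 2 fell (limma), 63.6% in each, against 54.2% and 10.1% of all tested genes. Of the 7 calls against plates 3 and 4 remained without CK2D replicate 1 and 2, and of the 7 between leaf days 0 remained without either TL3D library. The conidial regulator wetA, PCI_1706, stood at 185 and 175 FPKM in CK2D, 34.4 and 18.1 in TL2D, and 131 and 155 in TL3D. Going the other way, the 2 markers that fell in TL3D against TL2D were the hydrophobin genes PCI_2115 and PCI_9301. Their changes were −1.42 and −0.91 without TL3D replicate 1. The part of conidia-forming cells in the changes of the pair, and of PCI_5153, PCI_2455 and the neighbours that moved with it, was not tested.

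Over the 6 libraries, the likeness of each gene's profile to those of 8406 other genes was described by Pearson's r of log2(FPKM + 1), with no test, since these are 3 groups of 2 that share their scaling. PCI_3792 and PCI_3793 followed each other at r = 0.999, rank 2 and rank 1 in each other's list. Besides each other, the nearest genes to both were a superoxide dismutase (PCI_2753) and the acyl-CoA ligase sidI of siderophore synthesis (PCI_2116), at r from 0.998 to 0.9998. PCI_3791 followed PCI_3792 and PCI_3793 less closely than they followed each other (r = 0.914 and 0.924, ranks 277 and 214 in its list). Its nearest genes were PCI_8525 (hypothetical protein), PCI_3652 (monooxygenase dbaB) and PCI_8597 (a Cdc42 homolog), at 0.997, 0.996 and 0.993.

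PCI_1262 and PCI_1263 followed each other at r = 0.931, and many genes followed each more closely (ranks 429 and 252). The nearest to PCI_1262 were PCI_3764 (hypothetical protein), PCI_4583 (a short-chain dehydrogenase) and PCI_2726 (a G protein alpha subunit). PCI_2726 stood at 21.7 and 20.4 FPKM in CK2D, 3.20 and 0.261 in TL2D, and 28.5 and 18.8 in TL3D. The nearest to PCI_1263 were PCI_3418 (succinate-CoA ligase), PCI_9124 (the multidrug transporter atrB) and PCI_4631 (an esterase or lipase). PCI_3418 stood at 5.82 and 5.58 FPKM in CK2D, 1.80 and 0.281 in TL2D, and 18.8 and 13.1 in TL3D.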

How the data were processed

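Per the file headers, the deposited tables hold FPKM for each replicate, made by the authors (Cufflinks, per the submitters' processing notes, which list no version). The aligner is not given in the sources used here, nor are build, annotation or read totals. The deposited fold is a ratio of mean FPKM by the authors, the deposited log2 column is its log2 (within 0.001 for 100% of genes), and the deposited FDR is an adjusted p-value from a test the tables leave unnamed. Both tables hold the same TL2D values.

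A gene entered a comparison when 2 or more of its 4 libraries reached 1 FPKM. Values were log2(FPKM + 1), which understates changes of low genes, and the test was limma 3.58.1 in R 4.3.3 (eBayes with a trend, 2 residual degrees of freedom). FPKM was used without read counts, and no count test was run. The procedure was tested on simulated data. The members and lists were chosen with earlier results of these data known, and lists are search terms on product names. Named genes are the 5 members, examples of list genes, neighbours called at least 2-fold and the 3 nearest profiles per member; further genes were named after their values were seen. Alternatives were each replicate left out, a pseudocount of 0.1, replicate numbers as a block, no filter, 2 other scalings, a joint fit of 6 libraries and the authors' FDR. Groups of 2 allow no check for outlying samples.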

Additional observations from a re-analysis of the deposited data

How the results depend on the processing

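Among the recomputed member changes, 140 kept direction and side of the threshold, 22 lost a call, 1 gained one and 2, both without a call, turned sign. Leaving out each library in turn gave 1131 to 5229 called genes in TL2D against CK2D, 0 to 3251 in TL3D against TL2D and 3673 to 4324 in TL3D against CK2D. In TL2D against CK2D the change then ranged from 1.01 to 2.27 for PCI_3791, from −2.63 to −1.57 for PCI_1262 and from −2.25 to −1.21 for PCI_1263. In TL3D against TL2D it ranged from −1.12 to 0.14 for PCI_3791, from −0.82 to −0.60 for PCI_3792, from −0.75 to −0.50 for PCI_3793, from 1.65 to 2.71 for PCI_1262 and from 2.41 to 3.45 for PCI_1263. For PCI_1262 in TL3D against CK2D it ranged from −0.058 to 0.23. Differences of log2 ratios that turned sign ranged from −0.25 to 0.16 (PCI_3792 over PCI_1263, TL3D against CK2D), from −0.48 to 0.53 (PCI_3791 over PCI_3793, TL2D against CK2D) and from −0.37 to 0.64 (the same genes, TL3D against TL2D). With a pseudocount of 0.1, calls were lost for PCI_1263 (−3.30 in TL2D against CK2D and 4.67 in TL3D against TL2D) and PCI_3793 (−0.63 in TL3D against TL2D), and the ratio of PCI_1263 to PCI_1262 in TL2D against CK2D became −0.94. With no filter, PCI_3793 (−0.62) and PCI_1262 (2.18) lost their calls in TL3D against TL2D, where 9385 genes share the adjustment. By the authors' deposited FDR, PCI_1263 passed in neither comparison (−2.76 and 4.17). TL3D against TL2D had 828 called genes, against 1515 in a joint fit of 6 libraries and 1908 by the authors' FDR. The cause of these shifts was not tested. Replicate numbers did not pair the libraries (correlations of deviations of −0.08, 0.17 and −0.25 over 8407 genes). With replicate numbers as a block, 3568, 739 and 4368 genes were called in the 3 comparisons, and PCI_3793 lost its call in TL3D against TL2D (−0.62, limma adjusted p = 0.0604). The crossed pairing of TL3D with CK2D, chosen after seeing the data, called 5372 genes against 4873. Read totals are unknown, so the counting error of low values such as those of PCI_1263 in TL2D cannot be given.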
